A study of Rattus norvegicus with 23 samples.

Results

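The MS4A family comprises small proteins that cross the cell membrane several times and that are encoded side by side in a gene cluster. Members were taken by gene name: every non-control probe of the array whose name in the scanner files, without the suffix _predicted, was Ms4a1, Ms4a6b, Ms4a6bl1, Ms4a4a, Ms4a7, Ms4a11 or Ms4a8a. This gave 7 of 41012 probes, for 5 of the 7 names. No probe carried the names Ms4a6bl1 or Ms4a8a. The probe named Ms4a6b in the files belongs, by its accession, to the gene that RefSeq now calls Ms4a6bl1, and is called Ms4a6bl1 here. The name Ms4a11 is an older synonym of the gene RefSeq calls Ms4a6a. In all, 5 of the 7 probes passed the filter on dim probes, and with the brightest probe kept per gene, 4 members were tested among 20605 features.

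The samples were peripheral blood mononuclear cells (PBMC, the lymphocytes and monocytes of blood separated on a Ficoll gradient) of Wistar rat pups aged 21 days, at weaning. Control pups were suckled by dams fed freely on standard chow, and CR pups by dams whose calories were restricted by 20% throughout lactation. The males comprised 6 controls and 5 CR pups and the females 6 of each, with 1 array per pup, and all pups were killed in the fed state. The labels give 11 control and 5 CR dams without tying pups to dams, so littermates were treated as independent and p-values may be too small. Each array set the pup's RNA (Cy5) against a pool of all samples (Cy3), with no dye swap. Values are log2 ratios of Cy5 to Cy3, and a value of 0 is nominally the level of the pool.

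Ms4a1 encodes CD20, a surface protein of B cells that takes part in calcium entry and is the target of therapeutic antibodies such as rituximab. Ms4a2 encodes the beta chain of the high-affinity IgE receptor of mast cells and basophils. Ms4a4a and Ms4a7 are best known from monocytes and macrophages, Ms4a3 from precursors of granulocytes and monocytes, and genes of the Ms4a6 group from monocytes and, in the mouse, T cells. In blood, members of this family therefore mark different cell types.

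The array design placed all 18 MS4A-named probes on chromosome 1 of rn4, between positions 213464505 and 214376704. Of the members, Ms4a1 had 1 probe at chr1:213764136-213764195, and Ms4a7 had overlapping probes at chr1:213842090-213842149 and chr1:213842131-213842190. The Ms4a4a probe lay at chr1:213948281-213953512, a span of 5232 bases where the other member probes span 60, so that its bases are not contiguous on that build. Ms4a11 had probes at chr1:214048274-214048333 and chr1:214057494-214057553, and the Ms4a6bl1 probe lay at chr1:214208073-214208132. Exon or UTR positions within rn4 genes, and the match of each probe to sister genes of the cluster, were not tested here.

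Upstream sequences are shown of Ms4a6bl1 and of Ms4a6a, the gene assigned to the Ms4a11 probes by synonym. They were chosen because these were the members with the largest differences between the sexes and because their arrays varied together (Pearson's r = 0.50 over 23 arrays after each group's mean was subtracted, for the brighter Ms4a11 probe). For the dimmer Ms4a11 probe, r with Ms4a6bl1 was -0.01. They are the 250 bases before the start of each gene in RefSeq, build GRCr8, at chr1:217668076-217668325 on the plus strand and chr1:217839574-217839823 on the minus strand. On rn4 the Ms4a11 probes lay on the plus strand, before the Ms4a6bl1 probe on the minus strand. Order and strands thus differ between the builds, and whether these probes read Ms4a6a was not tested. Capitals mark the longest stretch that the upstream sequences share.
Ms4a6bl1: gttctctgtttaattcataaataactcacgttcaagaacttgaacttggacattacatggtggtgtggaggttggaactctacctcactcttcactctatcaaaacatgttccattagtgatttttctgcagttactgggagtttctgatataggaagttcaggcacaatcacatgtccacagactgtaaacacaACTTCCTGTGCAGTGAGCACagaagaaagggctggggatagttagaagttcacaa
Ms4a6a: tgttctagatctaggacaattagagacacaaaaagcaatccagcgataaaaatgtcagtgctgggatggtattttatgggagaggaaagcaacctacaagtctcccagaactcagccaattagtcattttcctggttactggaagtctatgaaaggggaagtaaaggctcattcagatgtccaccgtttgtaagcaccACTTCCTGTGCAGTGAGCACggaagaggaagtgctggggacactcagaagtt

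The shared stretch was 20 bases long. It lay 55 to 36 bases before the start of Ms4a6bl1 and 52 to 33 bases before that of Ms4a6a. Only these 2 of 33469 RefSeq promoter entries of the same length held it on either strand (0.00598%). Among the 10 pairs that the 5 members with an entry form (Ms4a6bl1, Ms4a6a, Ms4a7, Ms4a4a and Ms4a8), the next longest shared stretch was 11 bases, between Ms4a6a and Ms4a7. On both strands, 5 motifs were searched: the octamer ATTTGCAT, the PU.1 core GAGGAA, the E-box CACGTG, the CCAAT box CCAAT and the TATA box TATAAA. The PU.1 core was found in the Ms4a6a sequence, 169 to 164 and 28 to 23 bases before the start, and in 23.3% of all entries. CCAAT was also found there, 135 to 131 bases before the start, and in 34% of entries. The Ms4a6bl1 sequence held no match to these letters. The octamer was found in 1.56% of entries, the E-box in 5.59% and the TATA box in 12.9%. These matches describe letters and not bound sites, and neither promoter was measured here.

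Signal set what could be read. Between 20600 and 24074 probes per array were well above background in Cy5, median Cy5 intensities lay between 55.6 and 65.76 where the local background was 27 to 30, and at most 1 probe per array was saturated. Ms4a1, Ms4a6bl1 and both Ms4a11 probes were above background on all 23 arrays. Cy5 intensity ran from 342.9 to 1337 for Ms4a1, from 6431 to 24360 for Ms4a6bl1, and from 1290 to 3001 and 70.03 to 154.6 for the Ms4a11 probes. Ms4a7 was dim: its better probe (45.36 to 75.84) was above background on 20 arrays and its other probe on 3. The Ms4a4a probe was not well above background on any array, so neither it nor the dimmer Ms4a7 probe entered the tests. The number of arrays limits the precision, and the median standard error of a log2 difference was 0.082 in males and 0.079 in females. Arrays of CR male 1 and CR female 5 stood apart, with a median correlation with the other arrays of 0.16 and 0.07, and results are also given without them.

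**Figure D1:**
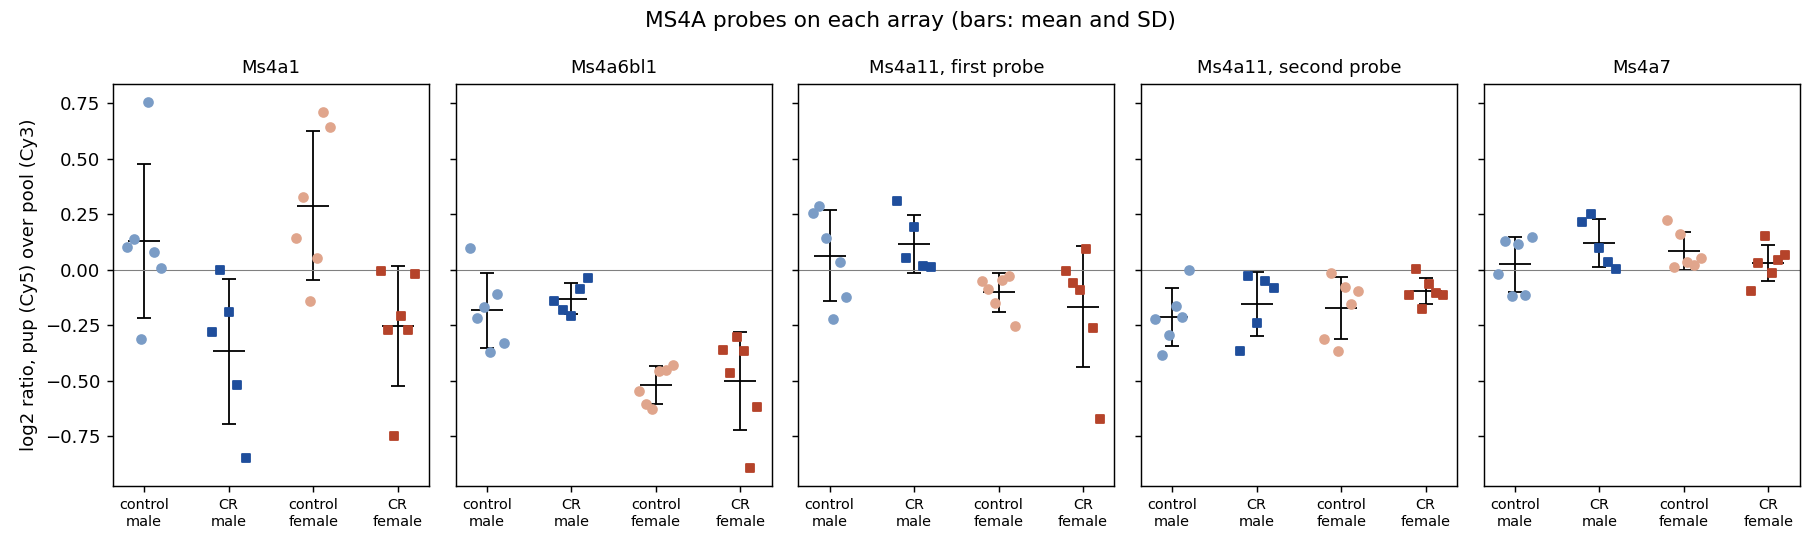
Log2 ratio of pup (Cy5) over pool (Cy3) for the 5 MS4A probes that passed the filter, 1 point per array in each of the 4 groups, with the group mean and SD as bars. The first Ms4a11 probe is the brighter one. Ms4a1 lay lower in both CR groups, and Ms4a6bl1 lay higher in males than in females in both diets, without overlap between the sexes within a diet.

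The study asked how moderate restriction of the lactating dam marks the blood cells of the offspring. Ms4a1 was the member with the lowest values in CR pups relative to controls, in both sexes. In males, the control arrays ran from -0.31 to 0.76 with a median of 0.09. The 5 CR males were at -0.28, 0.0003, -0.19, -0.52 and -0.84. All 5 lay below the control mean, although the ranges overlapped through the lowest control. The mean was 0.13 ± 0.35 in control males and -0.37 ± 0.33 in CR males (SD, n = 6 and 5). The difference was -0.50 ± 0.18 (SE), or 0.71-fold, with an exact two-sided permutation p of 0.0303 and a limma adjusted p of 0.6446.

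In females, Ms4a1 ran from -0.14 to 0.71 in controls (median 0.24) and from -0.75 to -0.005 in CR pups (median -0.24). All 6 CR females lay below the control mean, and the groups overlapped through the lowest control. The means were 0.29 ± 0.34 and -0.25 ± 0.27 (SD, n = 6 each). The difference was -0.54 ± 0.17 (SE), or 0.69-fold, with an exact two-sided permutation p of 0.00866 and a limma adjusted p of 0.9938. With the sexes weighted equally, Ms4a1 differed by -0.52 ± 0.13 (95% interval -0.78 to -0.26), or 0.70-fold. Its unadjusted limma p of 0.00041 ranked 16 of 20605 features, but the adjusted p was 0.4952, and the permutation p (100000 resamples within sex) was 0.00047. All 11 CR arrays lay below the mean of the controls of their sex.

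In none of the diet comparisons was any member called at an adjusted p under 0.05. Nor was any other feature: 0% of 20605 were called in males, in females, in their mean and in the difference between the sexes' diet contrasts. At an unadjusted p under 0.05, 1 of the 4 members passed in males, in females and in their mean, each time Ms4a1, against 7.14%, 4.64% and 7.33% of all features. The 2 diet contrasts of Ms4a1 were close: their difference, male minus female, was 0.05 ± 0.25 (95% interval -0.47 to 0.57, adjusted p = 0.9896), and none of the 4 members passed unadjusted, against 4.66% of features. No member separated CR from control arrays without overlap, which 0.393% of features did in males and 0.199% in females.

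Arrays shared 6 slides, of which 4 held all groups. Within slides, Ms4a1 was lower in the CR male on 3 of 4 slides (differences -0.85 to 0.03) and lower in the CR female on 6 of 6 (-0.98 to -0.15). With slides as a fixed block, the difference for the mean of the sexes was -0.52 ± 0.15 (adjusted p = 0.6563). Without the arrays that stood apart it was -0.53 (adjusted p = 0.872), and leaving out any single array gave -0.57 to -0.46. The median difference over all features in males was -0.007 as reported and -0.19 after median centring. On the latter scale Ms4a1 was at -0.90 in males and at -0.77 in the mean of the sexes.

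**Figure D2:**
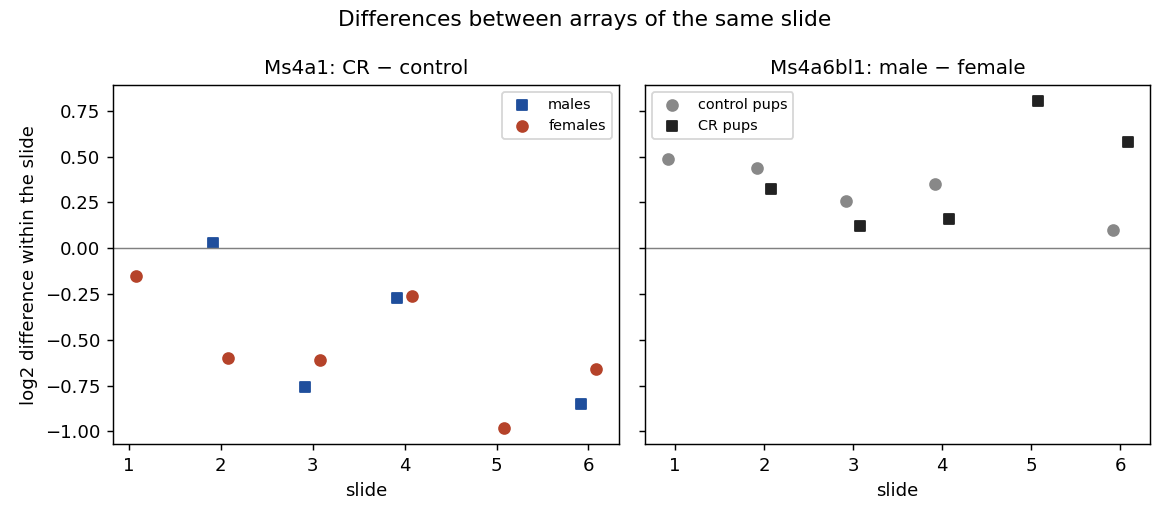
Log2 difference between arrays of the same slide, for Ms4a1 (CR minus control, left) and Ms4a6bl1 (male minus female, right), with 1 point per slide and sex or diet. Ms4a1 was below 0 on 9 of 10 slide comparisons, and Ms4a6bl1 above 0 on 10 of 10.

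Other B cell genes had lower means in CR pups too, although none passed after adjustment. Of 21 B cell markers other than Ms4a1, 13 were measured. All 13 had a lower mean in CR pups with the sexes weighted equally, 10 of them at an unadjusted p under 0.05, and their median difference was -0.27. Among all features 1005 were lower and 506 higher at that unadjusted threshold, with a median of 0.0013. Blk, a kinase of B cell receptor signalling, differed by -0.37 ± 0.11, and Cd22, which dampens that signalling, by -0.27 ± 0.08. Whether these differences are smaller than that of Ms4a1 was not tested. By sex, all 13 markers were lower in CR males (median -0.34), 6 of them at an unadjusted p under 0.05. In CR females 10 of the 13 were lower and 3 higher (median -0.23), with 4 of the lower ones under that threshold.

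Averaged over these 13 markers, the log2 ratio was 0.17 ± 0.26 in control males, -0.21 ± 0.25 in CR males, 0.23 ± 0.28 in control females and 0.05 ± 0.17 in CR females (SD over arrays). After each group's mean was subtracted, Ms4a1 followed this average over the 23 arrays (r = 0.79). That is a description of arrays that share their normalization. With the average as a covariate in limma, the diet difference of Ms4a1 was -0.10 ± 0.13 in males (limma adjusted p = 0.9385), -0.36 ± 0.12 in females (limma adjusted p = 0.9791) and -0.23 ± 0.09 in the mean of the sexes (limma adjusted p = 0.8055). All 13 markers on the array were above background on every array. In RNA of mixed cells, fewer B cells and less Ms4a1 RNA per B cell cannot be told apart.

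**Figure D3:**
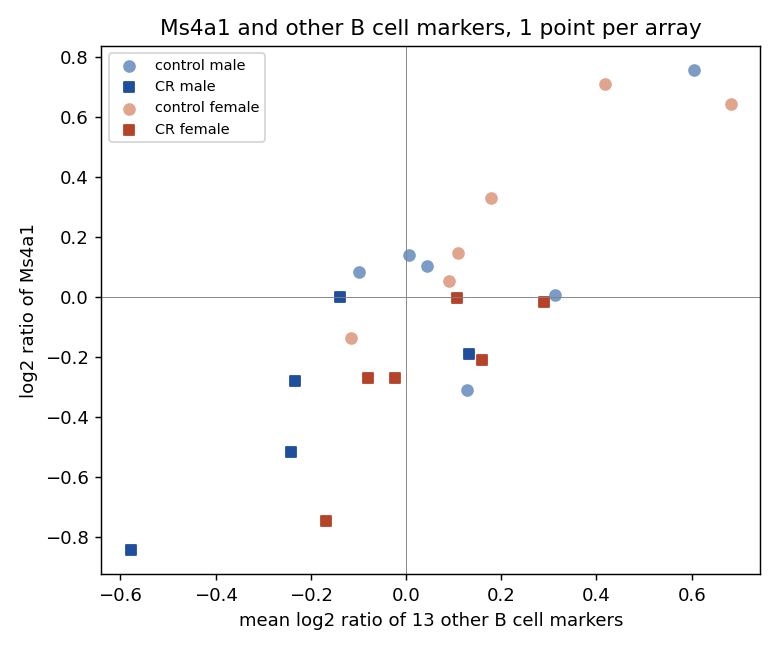
Log2 ratio of Ms4a1 against the mean log2 ratio of 13 other B cell markers, 1 point per array and a symbol per group. Arrays with higher B cell markers had higher Ms4a1 (r = 0.79 after group means were subtracted), and CR arrays are squares.

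The genes whose pattern was most like that of Ms4a1 over the 23 arrays, with group means subtracted, were Cd74 (r = 0.85), the invariant chain of class II antigen presentation, and RT1-Db1 (0.85), a class II beta chain. Cd79b (0.83), a signalling chain of the B cell receptor, Eaf2 (0.83) and Apaf1 (0.82) followed. From the Cy5 channel alone, r was 0.83 for Cd79b, 0.79 for RT1-Db1 and 0.61 for Cd74. Of 12 dendritic cell and class II genes, 8 were measured, and 6 were lower in CR pups, each at an unadjusted p under 0.05 and none after adjustment. RT1-Db1 differed by -0.50 ± 0.12 and Cd74 by -0.57 ± 0.16, with RT1-Da, a class II alpha chain, at -0.34 ± 0.11.

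Factors known to bind or regulate the CD20 promoter were also listed. Of 14, 10 were measured and 9 were lower in CR pups with the sexes weighted equally, with a median of -0.08, and 2 passed unadjusted. In males all 10 were lower (median -0.12), and in females 5 of 10 (median -0.03). Pou2f2 (Oct-2), which binds octamer motifs, differed by -0.19 ± 0.06, and Usf2, which binds E-boxes, by -0.27 ± 0.09. Foxo1 was at -0.14 ± 0.09. None passed after adjustment, and some of these factors are B cell genes that the B cell list also held.

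Between the sexes, Ms4a1 did not pass the test. The difference, males minus females averaged over the diets, was -0.14 ± 0.13 (95% interval -0.40 to 0.12, adjusted p = 0.8213). The 13 other B cell markers were all lower in males, 3 at an unadjusted p under 0.05, with a median of -0.16. Blk was at -0.29 ± 0.11, Cd40 at -0.29 ± 0.13 and Cd79b at -0.33 ± 0.16. With the B cell average as a covariate the sign of Ms4a1 turned, at 0.03.

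Ms4a6bl1 was higher in males. In control pups, males ran from -0.37 to 0.10 with a median of -0.19, and females from -0.63 to -0.43 with a median of -0.50. In CR pups, the 5 males were at -0.14, -0.18, -0.21, -0.09 and -0.04, and females ran from -0.89 to -0.30 with a median of -0.42. Every male lay above every female of the same diet. Across diets the ranges touched, since the lowest control male lay below the highest CR female. Most arrays were below 0 although the pool held all samples, so a value of 0 does not mark the middle of the pups for this probe. The cause of this offset was not tested, and only differences between groups are read. Before normalization, Cy3 intensity of this probe ran from 2673 to 7679 in control males and from 6949 to 8307 in control females. Cy5 intensity ran from 6431 to 24360 and from 12710 to 17160 in the same order. In CR pups, Cy3 ran from 6581 to 8549 in males and from 7190 to 8111 in females. Their Cy5 ran from 13790 to 22270 in males and from 9001 to 18870 in females. The difference from Cy5 alone, averaged over the diets, is given below.

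The means were -0.18 ± 0.17 in control males and -0.52 ± 0.09 in control females (SD, n = 6 each), a difference of 0.34 ± 0.09 (SE). In CR pups they were -0.13 ± 0.07 and -0.50 ± 0.22 (SD, n = 5 and 6), a difference of 0.37 ± 0.09. The exact two-sided permutation p was 0.00216 in control pups and 0.00433 in CR pups, each the smallest that these group sizes allow, while the limma adjusted p was 0.5764 and 0.7102. Averaged over the diets the difference was 0.35 ± 0.06 (95% interval 0.22 to 0.48), or 1.28-fold, with an adjusted p of 0.01948 by limma and a permutation p of 1e-05, the smallest that 100000 resamples can give. All 11 males lay above the female mean of their diet.

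Ms4a6bl1 was 1 of the 12 features called between the sexes over both diets, which is 0.0582% of 20605, and the only one of the 4 tested members. Within control pups 0.0437% of features were called and within CR pups 0.0388%, with no member among them. At an unadjusted p under 0.05, 2 of the 4 members passed for the mean of the diets (Ms4a6bl1 and Ms4a11), against 7.39% of features. Males and females did not overlap for 0.369% of features in control pups and for 0.291% in CR pups. Only 5 features (0.0243%) had males above females without overlap in both diets, with Ms4a6bl1 among them.

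**Figure D4:**
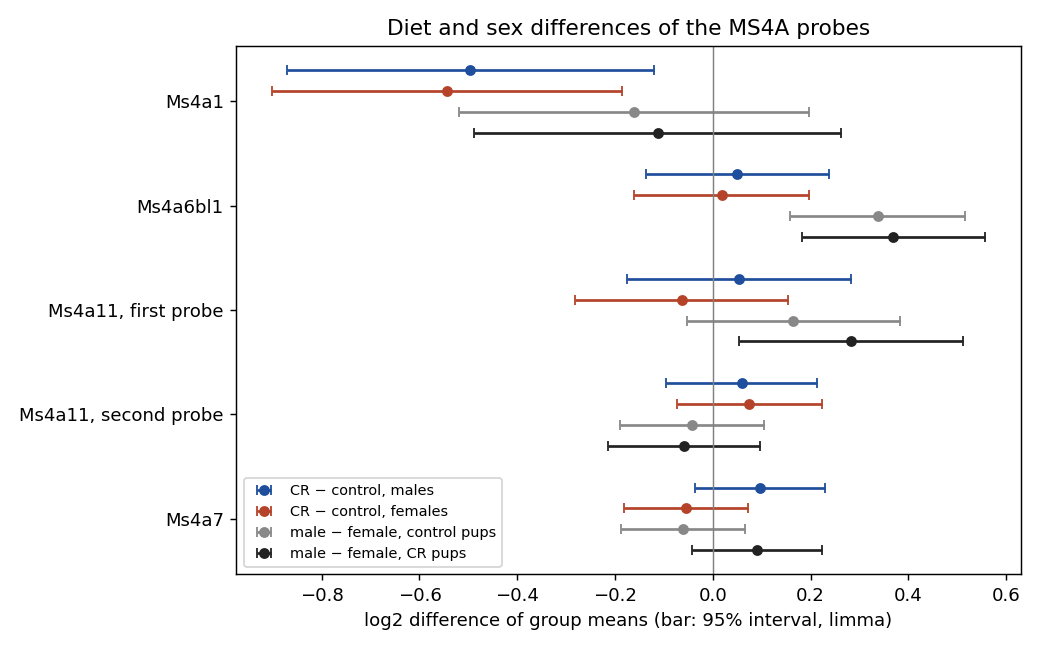
Log2 difference of group means with its 95% interval from limma, for each MS4A probe that passed the filter, in the 4 comparisons within a sex or a diet. The intervals exclude 0 for Ms4a1 by diet in both sexes, for Ms4a6bl1 by sex in both diets and for the first (brighter) Ms4a11 probe by sex in CR pups.

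Within slides, Ms4a6bl1 was higher in the male on 5 of 5 slides in control pups (0.10 to 0.49) and on 5 of 5 in CR pups (0.12 to 0.80). The size was stable in several alternatives while the call was not. With slides as a fixed block the difference was 0.35 ± 0.06, and the adjusted p was 0.0879. Without CR male 4 it was 0.35 (adjusted p = 0.0528), and without CR male 5 it was 0.34 (0.0583). Without the arrays that stood apart it was 0.32 (adjusted p = 0.02329). The scale of the ratios mattered more: it was 0.18 (0.9586) after median centring, 0.67 (0.5992) after scale normalization and 0.21 (0.8536) from the Cy5 channel alone, where the Cy3 pool was not used. The authors' value table gave 0.37 (0.03314).

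**Figure D5:**
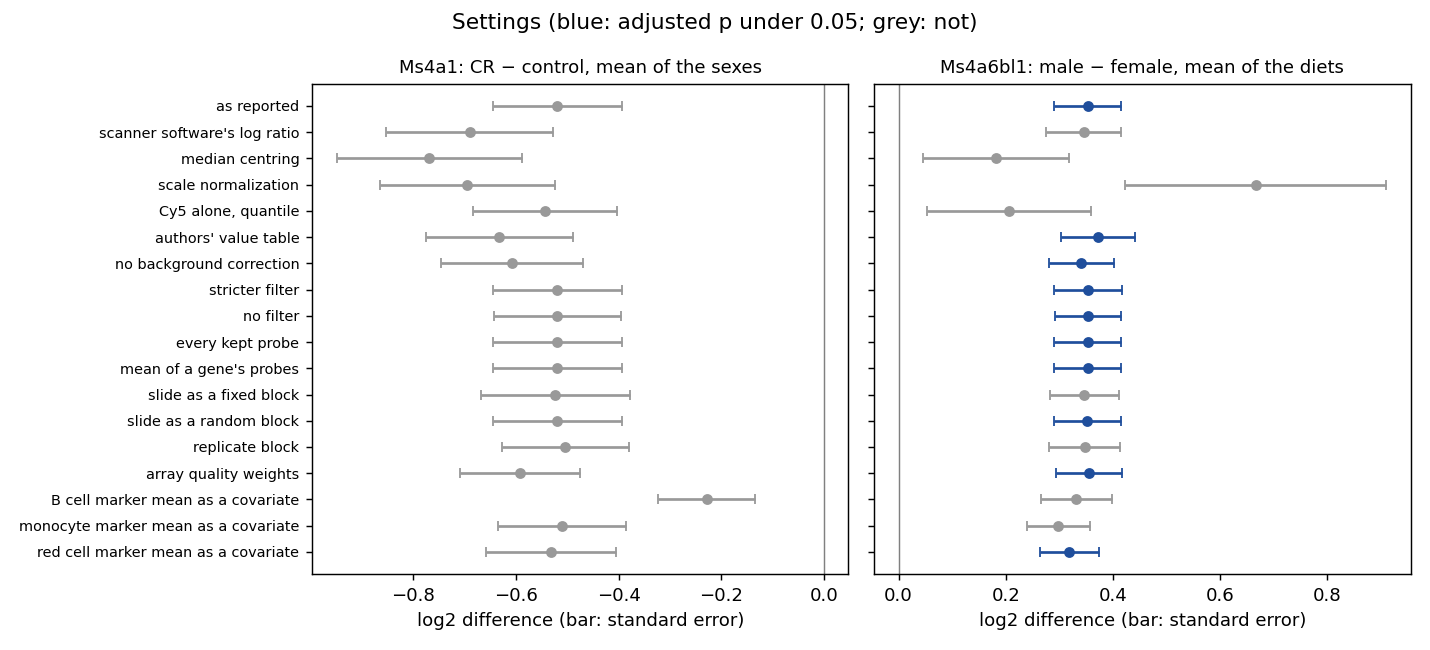
Estimate and standard error of the Ms4a1 diet difference (left) and the Ms4a6bl1 sex difference (right) under each processing setting, with settings that reach an adjusted p under 0.05 in blue. Ms4a1 is below 0 and Ms4a6bl1 above 0 in every setting drawn. The first is never called, and the second is called in some settings only.

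Markers of other cells moved beside this difference. Over the 23 arrays, with group means subtracted, Ms4a6bl1 ran against the averages of the red cell markers (r = -0.58) and of the monocyte markers (r = -0.54). All 7 measured red cell markers were lower in males, with a median difference of -0.41, none at an unadjusted p under 0.05. Their average ranged from -2.06 to -0.19 in control males, from -1.59 to 0.46 in CR males, from -1.64 to 1.12 in control females and from -1.30 to 1.85 in CR females. Its mean was -1.14 ± 0.81 in control males and -0.19 ± 1.00 in control females, but -0.36 ± 0.79 in CR males and -0.55 ± 1.20 in CR females (SD over arrays). The male mean thus lay below the female mean in control pups and above it in CR pups, with wide spreads in every group. The estimate with the red cell average as a covariate is given below. Whether red cell content is a cause of the Ms4a6bl1 difference was not tested. All 18 measured monocyte markers were lower in males as well, with a median of -0.11 and 1 at an unadjusted p under 0.05. That gene was Csf1r, the receptor for the growth factor of monocytes, at -0.37 ± 0.16, with the lysozyme gene Lyz2 at -0.25 ± 0.17 and Adgre1, which encodes F4/80, at -0.16 ± 0.12.

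With the red cell average as a covariate, Ms4a6bl1 differed between the sexes by 0.32 ± 0.05 (adjusted p = 0.01647). With the monocyte average it differed by 0.30 ± 0.06 (adjusted p = 0.0795). The monocyte average itself was -0.06 ± 0.14 in control males, 0.03 ± 0.22 in CR males, 0.17 ± 0.17 in control females and 0.04 ± 0.18 in CR females.

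The 5 named features most like Ms4a6bl1 were all ribosomal protein genes: Rpl17 (r = 0.87), Rpl5 (0.77), Rps12 (0.72), Rpl35 (0.67) and Rps15a (0.67). These probes share arrays and normalization. From the Cy5 channel alone, r was 0.15 for Rpl17 and -0.12 for Rpl5, but 0.77 for Rps12, 0.80 for Rpl35 and 0.48 for Rps15a.

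By diet, Ms4a6bl1 did not pass the test. CR minus control was 0.05 ± 0.09 in males (95% interval -0.14 to 0.24) and 0.02 ± 0.09 in females (-0.16 to 0.20), with adjusted p-values of 0.9395 and 0.9973. The difference between the sex contrasts of the 2 diets was 0.03 ± 0.12 (adjusted p = 0.9859).

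The brighter Ms4a11 probe was also higher in males on average. Control males ran from -0.22 to 0.29 (median 0.09) and control females from -0.25 to -0.03 (median -0.07). The CR males were at 0.31, 0.05, 0.19, 0.02 and 0.01, and the CR females ran from -0.67 to 0.09 (median -0.07). The sexes overlapped in both diets. Of the 6 control males, 4 lay above the control female mean, and all 5 CR males lay above the CR female mean. The difference over both diets was 0.22 ± 0.08 (95% interval 0.07 to 0.38), or 1.17-fold, with a permutation p of 0.00666 and an adjusted p of 0.6617, so it was not called. Within slides the male was higher on 4 of 5 slides in control pups and on 5 of 5 in CR pups.

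The other Ms4a11 probe, named for the same gene, did not repeat the sex difference of the brighter probe. It gave -0.05 ± 0.05 between the sexes (adjusted p = 0.8392), the opposite sign, and the probes ran against each other over the arrays (r = -0.35, group means subtracted). Its values ran from -0.38 to 0.003 over all groups. Whether the probes read different transcripts or sister genes was not tested. By diet, the brighter probe differed by 0.05 ± 0.11 in males and by -0.06 ± 0.11 in females, and the dimmer by 0.06 ± 0.07 and 0.08 ± 0.07. The features most like the brighter probe were Mapre1 (r = 0.87), Stk17b (0.86), Pdcd4 (0.85), Prkch (0.85) and Prps1l3 (0.85). From the Cy5 channel alone, r was 0.73, 0.70, 0.52, 0.73 and 0.71 in the same order. The brighter probe also ran with the average of 13 T cell markers (r = 0.58).

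Ms4a7 passed the test in no comparison. The means were 0.02 ± 0.12 in control males, 0.12 ± 0.11 in CR males, 0.09 ± 0.09 in control females and 0.03 ± 0.08 in CR females. CR minus control was 0.10 ± 0.06 in males (95% interval -0.04 to 0.23) and -0.05 ± 0.06 in females (-0.18 to 0.07), and the sexes differed by 0.01 ± 0.04, with adjusted p-values of 0.7816, 0.9939 and 0.9472. The probe lay close to background, which limits what it can show. With the scanner software's log ratio, CR minus control in males was 0.58 ± 0.38 (limma adjusted p = 0.8222), so the size and the error depend on the processing. The features most like it were Tmem70 (r = 0.86), Mthfd1l (0.80), Nkain4 (0.78), Lrrc46 (0.78) and Nras (0.78), and r fell to 0.25, 0.30, 0.55, 0.61 and 0.15 from the Cy5 channel alone. For the Ms4a4a probe, dim on every array, no difference is given.

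How much each member varied within groups also differed. The residual SD was 0.32 for Ms4a1, above that of 92.75% of features, 0.19 for Ms4a11, 0.15 for Ms4a6bl1 and 0.10 for Ms4a7, against a median of 0.14 over all features. Ms4a1 and Ms4a6bl1 had little relation over the arrays (r = -0.20), and neither had Ms4a1 and the brighter Ms4a11 probe (r = -0.22).

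Of the 16 other MS4A genes and relatives listed, 6 were measured, and none was called by diet or sex. A probe named Ms4a6a in the files, which RefSeq assigns to Ms4a6b, was measured on 22 arrays. Its values were -0.32, -0.39, -0.52, -0.42 and -0.20 in the 5 control males with a value, and -0.12, 0.16, -0.29, 0.44 and 0.43 in CR males. All but 1 of the CR males lay above all of these controls. The difference was 0.49 ± 0.20 in males, and 0.32 ± 0.14 for the mean of the sexes (unadjusted p = 0.02582, adjusted p = 0.6201). Control females averaged -0.44 ± 0.31 and CR females -0.29 ± 0.47, so that in females the spread was larger than the difference.

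Ms4a8, the current name of the gene also called Ms4a8a, was read by a probe named Ms4a8b, which the member rule did not take. It averaged -0.07 ± 0.73 in control males, -0.66 ± 0.18 in CR males, -0.43 ± 0.51 in control females and -0.60 ± 0.31 in CR females. The difference for the mean of the sexes was -0.38 ± 0.19 (adjusted p = 0.7045). The control males ranged from -0.66 to 1.26 and the CR males from -0.80 to -0.37, so the groups overlapped, and the difference in males was -0.60 ± 0.28. Without control male 1, at 1.26, it was -0.33 ± 0.22 (adjusted p = 0.7743), and the mean of the sexes was -0.25 ± 0.15 (adjusted p = 0.7692).

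Ms4a4c differed by 0.27 ± 0.13 in males and 0.18 ± 0.09 in the mean of the sexes (adjusted p = 0.7221). Ms4a3 was lower in males by sex, at -0.20 ± 0.08 (unadjusted p = 0.02335, adjusted p = 0.6727), and by diet it was at -0.0018 ± 0.08. Its probe was above background on 15 of 23 arrays. Tmem176a and Tmem176b, more distant relatives, differed by -0.04 ± 0.05 and -0.03 ± 0.07 with diet. Both Ms4a2 probes were above background on at most 1 array, and the probes of Ms4a10, Ms4a12 and Ms4a15 on none.

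Markers of other blood cells by diet, with the sexes weighted equally, were as follows, and none of these genes passed after adjustment. Of 18 monocyte and macrophage markers, 9 were higher and 9 lower in CR pups. By sex, 14 of the 18 were higher in CR males (median 0.10) and 13 were lower in CR females (median -0.15), each against controls. Examples for the mean of the sexes were Mrc1 at 0.18 ± 0.09, Cd14 at -0.27 ± 0.17 and Csf1r at -0.23 ± 0.16. Of 13 T cell markers, 9 were higher, with a median of 0.0078 and Cd3d at 0.11 ± 0.05. In CR males 10 of the 13 were higher (median 0.09), and in CR females 7 were lower (median -0.06). Of 9 NK cell markers 7 were higher, with Klrd1 at 0.32 ± 0.10 and Klrb1a at 0.25 ± 0.09. In CR males 8 of the 9 were higher (median 0.23), and in CR females 5 (median 0.01). The diet contrast of Klrd1, males minus females, was 0.66 ± 0.21 (limma adjusted p = 0.938). Of 6 neutrophil markers 5 were higher, with S100a9 at 0.57 ± 0.22 and S100a8 at 0.51 ± 0.22. The median difference was -0.02 for 6 plasma cell genes, -0.10 for 7 platelet markers, 0.22 for 7 red cell markers, -0.08 for 6 regulatory T cell genes and -0.03 for 5 Fc receptor and basophil or mast cell genes. For the red cell markers the sexes ran opposite ways: all 7 were higher in CR males (median 0.86) and all 7 lower in CR females (median -0.35), each against controls. Fcer1a, the alpha chain that pairs with Ms4a2 in the IgE receptor, was above background on no array. Among monocyte markers, Cd163 and Marco were above background on none.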

How the data were processed

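The submitters' processing notes name Agilent Feature Extraction 10.5.1.1 as the scanner software. The deposited scanner text, per the file headers, holds raw intensity values for both dyes at each spot, a log10 ratio already dye-normalized by that software, and other columns with spot flags and rn4 positions. The authors' deposited value table gives log2 levels for 22920 spots, with a median of 7.23 over all its values. Its making is not given in the sources used here. Its columns follow log2 Cy5 of the same array (r of 0.989 to 0.997), and its differences between arrays follow the ratio (r = 0.938) more than Cy5 (0.455), so it served as an alternative only.

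Intensities were corrected by normexp (offset 50) on local background and normalized by loess within arrays, control spots at weight 0, in limma 3.58.1 (R 4.3.3). Outlier-flagged spots (127 to 427 per array) were dropped, and repeated spots averaged. The filter asked for Cy5 well above background on 50% or more of a group's arrays, in any group (23692 probes passed). The brightest kept probe stood for a gene. RefSeq (GRCr8) named probes by accession (11000), symbol (5181), synonym (3455) or gene ID (1077), and 20299 stayed unnamed. Of the features tested, 10601 had a name.

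The 4 group means were fitted with lmFit and eBayes (prior degrees of freedom 3.4), with Benjamini-Hochberg adjustment over 20605 features and calls at 0.05. Permutation tests of single probes were exact within a sex or diet, and used 100000 resamples within strata for averaged contrasts. The fit was tested on simulated data. Alternatives covered normalization, filters, probes per gene, blocks, covariates and leaving out arrays. Named genes are all member probes, measured MS4A relatives, the 3 genes of each other list with the smallest p, and the 5 genes most like each member. A gene that this rule names is not reported here. Members and lists were chosen with earlier results of these data known.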

Additional observations from a re-analysis of the deposited data

Results flagged for a closer look

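Ms4a1 in CR female 3 was at -0.75, far below the next CR female at -0.27. The gap was 0.64 of the range of the 6 arrays of that group. Chance flags about 1 in 20 groups, and 20 groups of member probes were examined.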

How the results depend on the processing

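The diet difference of Ms4a1 kept its direction in all 41 alternatives for the mean of the sexes (-0.77 to -0.23, each at an unadjusted p under 0.05) and in none reached an adjusted p under 0.05 (lowest 0.08442, with array quality weights). In males it ran from -0.90 to -0.10 over 42 alternatives, of which 40 had an unadjusted p under 0.05, and in females from -0.82 to -0.36. Counts of members called by diet stayed at 0. Between the sexes, the count of members called over both diets was 1 as reported, and 0 with the scanner software's log ratio, median centring, scale normalization, Cy5 alone, slides as a fixed block, a replicate block, and the B cell or monocyte average as a covariate. Leaving out single arrays gave 0 to 1. The cause of these changes was not tested. The labels do not say whether replicate numbers pair the arrays, and correlations cannot settle it. Same-numbered arrays of different groups had a mean correlation of 0.06 (-0.41 to 0.46, 33 pairs). Differently numbered arrays of different groups had one of -0.01 (-0.48 to 0.58, 165 pairs). With the replicate block, Ms4a6bl1 differed between the sexes by 0.35 (adjusted p = 0.0989), and Ms4a1 by diet by -0.50.

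Small differences changed sign, none of them called. Ms4a11 in males was at -0.41 after median centring, -0.0025 with the replicate block and -0.051 with the B cell average, and leaving out arrays gave -0.0038 to 0.10. Ms4a11 in females was at 0.0057 with the mean of its probes (left out: -0.12 to 0.037). Its mean of the sexes was 0.015 with the software ratio, 0.059 from Cy5, 0.0079 in the authors' table, 0.0044 without background correction, 0.031 with the mean of its probes, 0.032 with slides as a fixed block, 0.010 with quality weights and 0.0033 with the red cell average (left out: -0.034 to 0.045). Ms4a6bl1 in males was at -0.46 after median centring and -0.0016 with the B cell average. In females it was at -0.35 after scale normalization, -0.014 from Cy5, -0.0064 with the B cell, -0.041 with the monocyte and -0.015 with the red cell average (left out: -0.022 to 0.096). Its mean of the sexes was -0.20 after median centring, -0.16 after scale normalization and -0.0040 with the B cell average. The difference between the sexes' diet contrasts was -0.27 for Ms4a1 after median centring, -0.044 with the monocyte and -0.019 with the red cell average (left out: -0.051 to 0.17). For Ms4a11 it was -0.33 after median centring. For Ms4a6bl1 it was -0.52 after median centring, -0.060 in the authors' table and -0.044 without the 2 outlying arrays (left out: -0.046 to 0.088). Between the sexes, Ms4a1 was at 0.031 with the B cell average, and Ms4a7 at -0.080 with the software ratio, -0.0049 after scale normalization and -0.037 without background correction (left out: -0.0016 to 0.030). The red cell covariate, leaving out the 2 outlying arrays and leaving out single arrays for Ms4a8 were chosen after seeing the data. Ms4a7 was not in the authors' table.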
